A study of Mus musculus with 12 samples.

Results

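Wnt proteins are secreted, lipid-modified signals that bind Frizzled receptors together with the co-receptors Lrp5 and Lrp6. Binding keeps β-catenin from being degraded, and β-catenin with TCF/LEF factors then switches on target genes, several of which damp the pathway again. Secreted inhibitors hold the signal back, either by binding the Wnt protein, as the Sfrp family and Wif1 do, or by binding Lrp5 and Lrp6, as Dkk1 does. In bone marrow the pathway is known for its part in osteoblast formation and in the exchange between stroma and blood stem cells.

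The genes described here are the Wnt ligands, their receptors, their secreted inhibitors and their feedback targets. They were chosen by a rule on gene symbols that uses no measured value, though earlier results of these data were known. The rule takes probe sets with a single symbol that is Wnt, Fzd, Sfrp or Dkk followed by a number, or Frzb, Wif1, Lrp5, Lrp6, Axin2, Lef1, Tcf7, Zbed3, Apcdd1, Nkd1, Rnf43, Znrf3 or Notum. This gave 101 of the 45037 probe sets on the array and 49 of its 18193 genes, namely 19 ligands, 12 receptors, 10 inhibitors and 8 feedback targets. Roles were assigned by symbol, with Zbed3 placed among the targets, and were not tested here. Tcf7 had no probe set of a single symbol and was not analysed here. Of the 49 genes, 30 had more than 1 probe set, and each gene is represented by its brightest one unless stated.

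The study asked how HSCs, the hematopoietic stem and progenitor cells, act on MSCs, the mesenchymal stem/stromal cells of bone marrow. Affymetrix arrays were run on total RNA from 6 cultures in which 3000 MSCs and 7000 HSCs shared a well (co-culture group) and from 6 cultures of 3000 MSCs with 0 HSCs (MSC-only group), each taken on day 6. By the labels, all cells came from the bone marrow of male C57BL/6 mice aged 6 weeks. MSCs were sorted as PDGFR-α+ Sca-1+ cells that lacked CD31, CD45 and TER119, and HSCs as Lin- Sca-1+ c-Kit+ cells. For co-cultures in general the study took MSCs from mice with an EGFP transgene under the ubiquitous CAG promoter; it is not stated whether the arrays used them. It is also not stated whether both cell types touched, whether MSCs were sorted again before RNA was taken, or which cultures share a mouse, so p-values measure the spread between these 12 samples.

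The arrays did not show a pure stromal culture. The 12 macrophage markers had a median percentile of 99.6 among all genes, and their summed signal was 232038 to 308418 in the co-culture group and 220920 to 306547 in the MSC-only group. Of 18 stromal markers 17 were measured, with a median percentile of 73.1; Col1a2, Postn, Fstl1, Cdh11, Cxcl12 and Col3a1 lay at percentiles from 90.2 to 99.0, with Col1a2 at 9677 to 20612, whereas Pdgfra, the sort marker, was at 407 to 1464, Thy1 at 7.0 to 124 and Lum at 4.5 to 180. Their summed signal was 24875 to 55260 in the co-culture group and 27250 to 56467 in the MSC-only group. Of these 17 markers 15 had a lower mean in co-culture and 2 a higher one. The median log2 difference, co-culture minus MSC-only, was -0.28, and the smallest adjusted p was 0.99998 in limma. Of the 9 HSC and progenitor markers measured, 5 had a mean signal below 50, and the others, Tal1, Procr, Gata2 and Meis1, had means of 879, 577, 194 and 153. Sex-linked genes did not follow the male label on all arrays: on the arrays numbered 3 and 4 of both groups Xist was at 16810 to 21978 and the Y-linked Eif2s3y at 0.50 to 13.6, whereas the other 4 MSC-only arrays had Xist at 60.5 to 118 and Eif2s3y at 2604 to 2845. The other 4 co-culture arrays had both, Xist at 13136 to 16604 and Eif2s3y at 1022 to 1331, so that among arrays 1, 2, 5 and 6 the group and these signals cannot be told apart. Results are also given without the arrays numbered 3 and 4, which leaves only arrays on which the group and these signals coincide. In such bulk RNA, fewer cells of a type and less RNA per cell cannot be told apart.

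Co-culture with HSCs was not accompanied by a Wnt pathway change that passed the test. Values are differences of log2(signal + 16), co-culture minus MSC-only. Of the 101 probe sets, 0 had an adjusted p under 0.05 in limma, against 0.00444% of all probe sets, and the same holds for the 49 genes, against 0.011% of all genes. The smallest adjusted p of a member probe set was 0.908, and that of a gene by its brightest probe set 0.99998. At an unadjusted p under 0.05 there were 2 genes with a higher mean, Axin2 and Apcdd1 (2.45% of all genes), and 2 with a lower mean, Dkk3 and Wnt9a (1.46% of all genes), by probe set 4 higher (2.81% of all) and 4 lower (1.55% of all). For every one of the 49 genes the 6 co-culture arrays overlapped with the 6 MSC-only arrays; groups did not overlap in 0.209% of all genes. The means were higher in co-culture for 24 members and lower for 25, with a median difference of -0.02, while over all genes 9695 were higher, 8498 lower and the median 0.01. By role the median difference was 0.08 for ligands (12 higher, 7 lower), -0.04 for receptors (4 higher, 8 lower), -0.11 for inhibitors (3 higher, 7 lower) and 0.14 for feedback targets (5 higher, 3 lower).

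**Figure D1:**
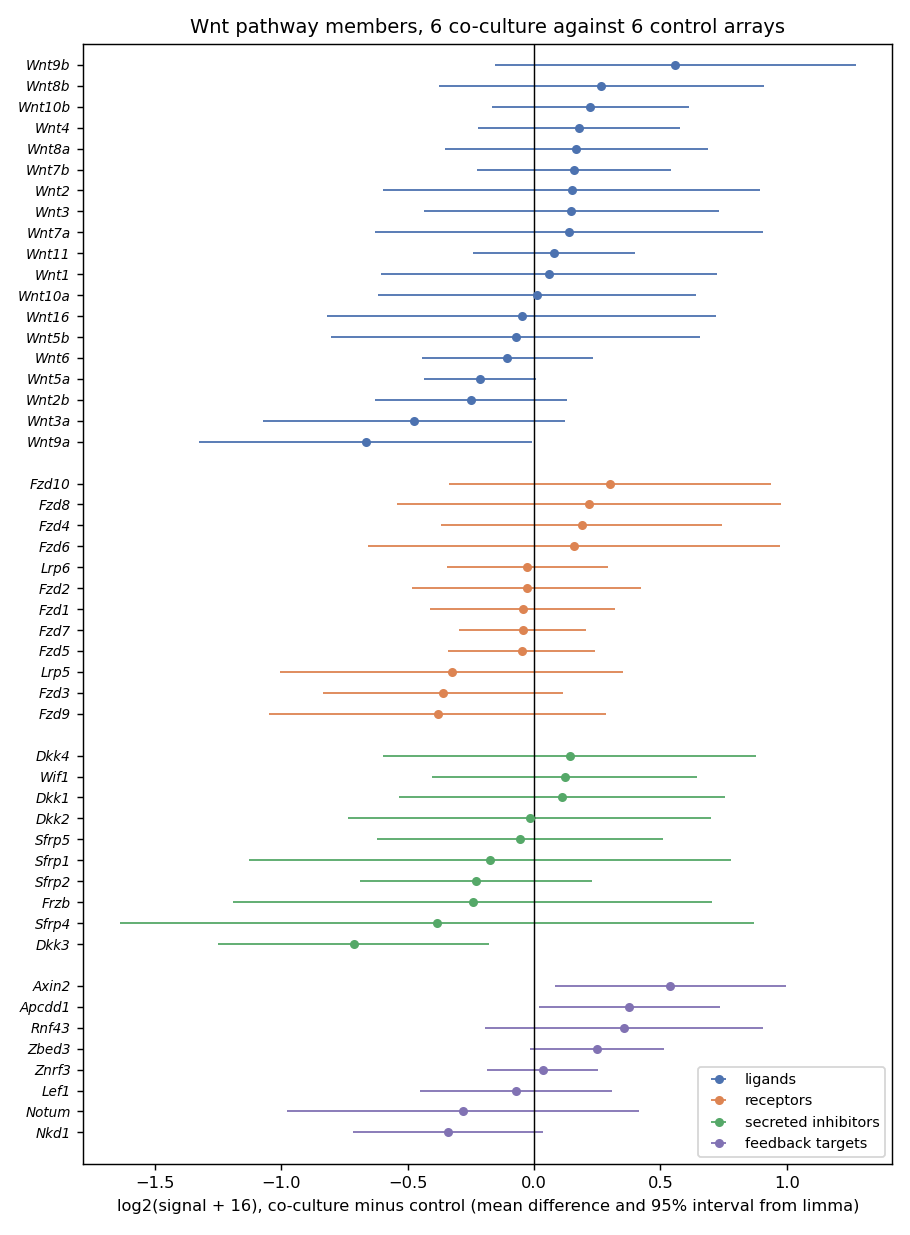
Each point is the log2(signal + 16) difference of 1 gene, co-culture minus MSC-only (6 arrays each), with its 95% interval from limma, coloured by role. The interval lies wholly below 0 for Dkk3 and Wnt9a and wholly above 0 for Axin2 and Apcdd1, and 0 of the 49 passed after adjustment over all probe sets.

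Most ligands were dim. Only 4 of the 19, Wnt5a, Wnt7b, Wnt6 and Wnt7a, had a mean signal of at least 50, and detection calls were not used here, so a dim value is not evidence of expression. Wnt5a, which acts largely without β-catenin and is the ligand of highest mean signal, ranged from 156 to 208 in co-culture with a median of 192, and from 187 to 266 with a median of 214 in MSC-only cultures. Its 2 lowest values were both co-culture arrays and the groups overlapped. The difference was -0.21 (SE 0.10, 95% interval -0.43 to 0.01, exact permutation p = 0.026), and all 4 Wnt5a probe sets had lower means in co-culture, by -0.03 to -0.47. Wnt9a, expressed in joint formation, ranged from 10.5 to 65.3 (median 25.8) in co-culture and from 32.9 to 80.1 (median 56.4) in MSC-only cultures. Its 3 lowest values were from co-culture, and the difference was -0.67 (SE 0.30, unadjusted p = 0.048 in limma, exact permutation p = 0.074), while its second, dimmer probe set was at 0.23.

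The other ligands differed by less than their spread. Wnt7b, a ligand that acts through β-catenin in several tissues, was at 108 to 192 (median 166) in co-culture and at 91.3 to 185 (median 145) without HSCs, a difference of 0.16 with an interval of -0.23 to 0.54. For Wnt6 the difference was -0.11 (interval -0.45 to 0.23) and for Wnt7a 0.14 (interval -0.63 to 0.91). Wnt3a, the ligand commonly used to activate β-catenin in culture, and Wnt9b were dim, at 6.0 to 58.3 and 4.7 to 56.3 over all arrays, with differences of -0.47 and 0.56 and intervals that included 0. The remaining 12 ligands had mean signals of 47.2 or less and differences from -0.25 (Wnt2b) to 0.27 (Wnt8b).

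Receptors were the brightest class by count, with 8 of 12 at a mean signal of at least 50, and none differed at an unadjusted p under 0.05. Lrp6, the co-receptor phosphorylated on Wnt binding, was at 1309 to 2304 (median 1445) in co-culture and 1286 to 1817 (median 1635) in MSC-only cultures. Both extremes of Lrp6 came from arrays numbered 3 and 4: co-culture array 3 was highest and MSC-only array 4 lowest. The difference was -0.03 with an interval of -0.35 to 0.29. The Frizzled genes of highest signal were as close: Fzd7 ranged from 783 to 1165 in co-culture and 899 to 1164 in MSC-only cultures (difference -0.05, interval -0.30 to 0.21), and Fzd1 from 478 to 1079 and from 634 to 862 (difference -0.04, interval -0.41 to 0.32). For these 3 receptors a change of 1 log2 unit lies outside the interval in either direction. Fzd3, known from axon guidance and planar polarity, was at 31.7 to 96.6 and at 51.0 to 104 (difference -0.36, interval -0.83 to 0.12). Of its 6 probe sets only 2 were lower in co-culture, and the second brightest was at 0.46. The dimmest, with a mean signal of 4.9, was at 0.36, and its groups did not overlap (2.6 to 27.0 and 1.1 to 2.5). Its co-culture array 1 was at 27.0 and its other co-culture arrays at 5.3 or less. This is 1 of 101 member probe sets, and the share of all probe sets without overlap is not given, so it cannot be set against that share. Fzd2, Fzd5, Fzd4 and Fzd8 were at -0.03, -0.05, 0.19 and 0.22. Fzd9, Lrp5 and Fzd10, all below a mean signal of 50, were at -0.38, -0.33 and 0.30, with intervals that included 0.

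A Fzd6 probe set, named here because its values were seen to give the smallest p of all member probe sets, was at 38.4 to 65.7 in co-culture and 6.3 to 50.5 in MSC-only cultures. Of the 6 co-culture arrays, 3 were above every MSC-only array. The difference was 0.90 (SE 0.25, unadjusted p = 0.0039 and adjusted p = 0.908 in limma), but the other Fzd6 probe sets were at 0.16 and -0.07.

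Among the 10 secreted inhibitors Dkk3 had the most negative difference. Dkk3 belongs to the Dickkopf family by sequence but, unlike Dkk1, is not an established Lrp6 ligand. Its signal ranged from 296 to 743 (median 451; 491 ± 182, SD, n = 6) in co-culture and from 506 to 1083 (median 812; 797 ± 212, SD, n = 6) without HSCs. The 3 lowest values were co-culture arrays 2, 5 and 6, and the co-culture values above the lowest MSC-only array were those of arrays 1, 3 and 4. The difference was -0.71 (SE 0.25, 95% interval -1.25 to -0.18, unadjusted p = 0.013 in limma, exact permutation p = 0.030). A second Dkk3 probe set gave -0.52 (SE 0.25).

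The Sfrp family, decoys that share the Wnt-binding domain of Frizzled, varied more between arrays than between groups. Sfrp4 was at 144 to 1372 (median 383) in co-culture and at 190 to 1709 (median 454) in MSC-only cultures, so its range within each group exceeded the difference between the medians many times over. The difference was -0.38 with a wide interval, -1.64 to 0.87. Sfrp1 ranged from 65.6 to 355 and from 75.8 to 490 (difference -0.17, interval -1.13 to 0.78). Frzb, a further member first described in cartilage, ranged from 10.4 to 147 and from 32.5 to 151 (difference -0.24, interval -1.19 to 0.71). Sfrp2 was dim on all arrays, at 1.5 to 27.6, and Sfrp5, at 15.8 to 89.9, had a difference of -0.06. Dkk2 was at 79.8 to 384 over all arrays with a difference of -0.02, and Dkk1, Dkk4 and Wif1 had mean signals of 41.1 or less.

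Of the feedback targets, Axin2 is the most general: its product helps to degrade β-catenin and its transcription is a common readout of Wnt activity. Its signal was 51.0 to 94.0 (median 74.7; 72.3 ± 17.1, SD, n = 6) in co-culture and 19.7 to 72.6 (median 47.6; 46.3 ± 18.8, SD, n = 6) in MSC-only cultures. The 3 highest values were from co-culture and the 3 lowest from MSC-only cultures. The difference was 0.54 (SE 0.21, 95% interval 0.08 to 0.998, unadjusted p = 0.025 in limma, exact permutation p = 0.037). The second Axin2 probe set, with a mean signal of 14.1, gave 0.06.

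The other targets did not form 1 pattern. Apcdd1, a membrane inhibitor of the pathway, had 94.2 to 154 (median 133) in co-culture and 56.0 to 125 (median 105) without HSCs, and 5 of 6 co-culture arrays lay above every MSC-only array. Its difference was 0.38 (SE 0.17, exact permutation p = 0.039), but this probe set can hybridize with other transcripts, and the other 5 Apcdd1 probe sets were all lower in co-culture, by -0.24 to -0.49. Zbed3, an Axin-binding protein, had 299.9 to 368 (median 341) and 199.5 to 355 (median 287). Its difference was 0.25 (SE 0.12, exact permutation p = 0.032) for a probe set shared among transcripts, 0.12 for the next brightest, and -0.45 (unadjusted p = 0.033) and 0.37 for a pair of dim ones. Nkd1, which binds Dishevelled, was at -0.34 (interval -0.72 to 0.03) for its brightest probe set and at 0.58 (unadjusted p = 0.040) for another. Znrf3, the ubiquitin ligase that removes Frizzled from the membrane, was at 354 to 475 and 370 to 448 (difference 0.03, interval -0.19 to 0.25). Lef1, Notum and Rnf43 were at -0.07, -0.28 and 0.36, with intervals that included 0. Of the 30 genes with several probe sets, 10 had all of them on the same side of 0.

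**Figure D2:**
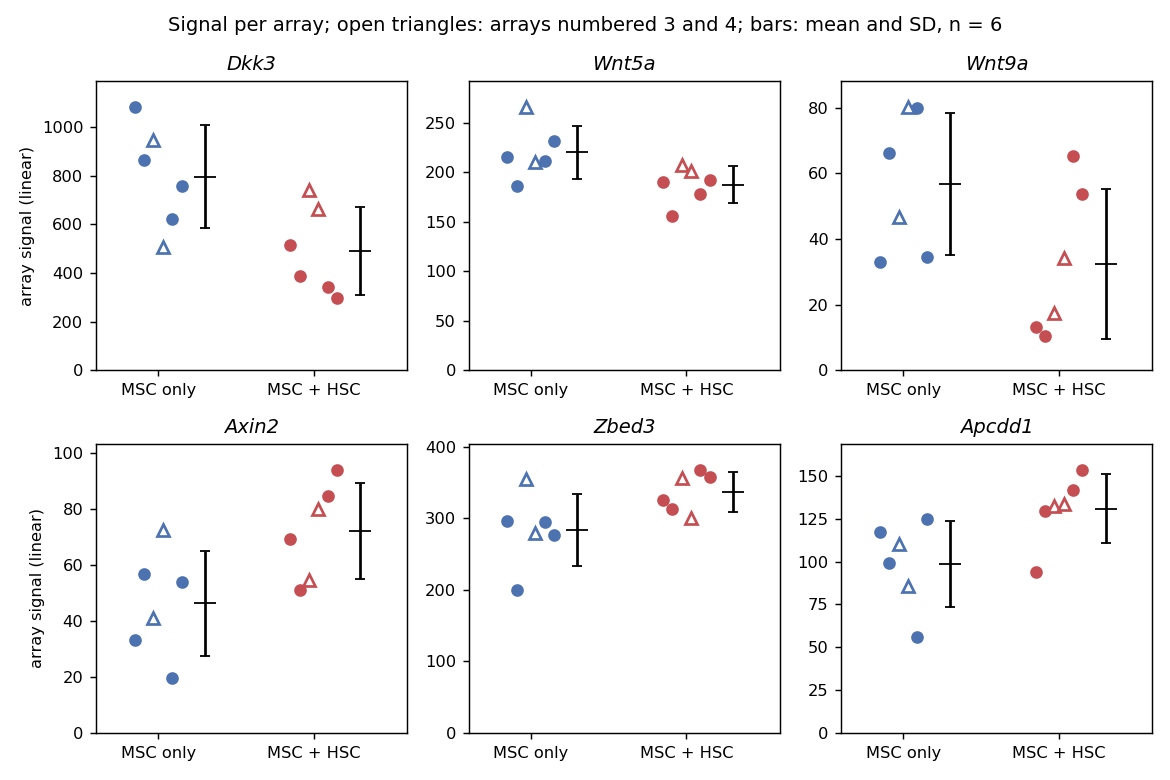
Array signal on a linear axis from 0 for the 6 member genes with the smallest unadjusted p in limma, one point per array, with the mean and SD of 6 arrays at the side; open triangles are the arrays numbered 3 and 4. Dkk3 runs from 296 to 743 with HSCs and 506 to 1083 without, Axin2 from 51.0 to 94.0 and 19.7 to 72.6, and in each panel the groups overlap.

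Leaving out the arrays numbered 3 and 4, chosen after their sex-linked signals had been seen, left 4 arrays against 4. Among those left, the group and the sex-linked signals cannot be told apart. Of the 49 genes 0 had an adjusted p under 0.05 (0.033% of all genes did). At an unadjusted p under 0.05 Axin2 and Zbed3 were higher (3.72% of all genes) and Dkk3 and Lrp6 lower (3.25% of all genes). The groups then did not overlap for 3 members, Dkk3, Lrp6 and Zbed3, against 5.03% of all genes. Dkk3 was at 296 to 514 in co-culture and 621 to 1083 in MSC-only cultures, a difference of -1.08 (SE 0.22, 95% interval -1.58 to -0.58, adjusted p = 0.398 in limma). On the arrays 3 and 4 left out, Dkk3 was at 743 and 665 in co-culture and at 947 and 506 in MSC-only cultures. Over the remaining arrays Axin2 had a difference of 0.70 (SE 0.26), Zbed3 of 0.35 and Lrp6 of -0.29. In these arrays the stromal marker level, the mean log2(signal + 16) of the 17 stromal markers, was 9.17 to 9.68 in co-culture and 9.72 to 10.16 in MSC-only cultures, which do not overlap either, whereas over all 12 arrays it was 9.17 to 10.27 and 9.25 to 10.16 (exact permutation p = 0.318). With that level as a covariate over all 12 arrays the Dkk3 difference was -0.52 and that of Axin2 0.38, both with an adjusted p of 0.992 in limma. The macrophage marker level differed by -0.01 between the groups (exact permutation p = 0.879).

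Several receptors and inhibitors followed the stromal marker level from array to array. Over the 12 arrays, and among the 23 members with a mean signal of at least 50, Pearson's r with that level was at least 0.6 for 8, namely 4 of 8 receptors and 4 of 6 inhibitors, and for 0 of 4 ligands and 0 of 5 targets. Of all 11876 genes of that brightness outside the stromal markers, 12.2% reached it. Arrays share the scaling and the markers share their cells, so the 23 relations are not independent of each other. Sfrp4 followed the level most closely (r = 0.918, permutation p = 3e-05; rho = 0.923, permutation p = 7e-05), within the co-culture group (r = 0.985) and within the MSC-only group (r = 0.844). The lowest Sfrp4 signals, 144 and 149.7, were those of the co-culture arrays with the lowest stromal level, and the highest, 1709 and 1372, those of MSC-only array 1 and co-culture array 3, where that level was highest. Without the 2 arrays farthest from the median level, r was 0.873.

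Lrp6 (r = 0.857, permutation p = 0.00018; rho = 0.895, permutation p = 0.00016) and Frzb (r = 0.847, permutation p = 0.00034; rho = 0.867, permutation p = 0.00051) came next. Fzd1, Fzd2, Sfrp1, Fzd4 and Dkk3 had r between 0.703 and 0.765, with permutation p from 0.00257 to 0.0115 for r and from 0.00212 to 0.0196 for rho. Without the 2 farthest arrays these 7 genes kept r between 0.672 and 0.837, and without the arrays numbered 3 and 4 between 0.558 and 0.863. The second probe sets of Dkk3 and Lrp6 gave 0.884 and 0.717. The second Fzd1 probe set gave -0.32, of opposite sign, at a mean signal of 47.3, and the other Fzd2 probe sets gave 0.413 and 0.253. The other Fzd4 probe sets gave 0.495 and -0.44, the second Frzb probe set 0.464, and the other 4 Sfrp1 probe sets 0.164 to 0.779. Fzd7 and Wnt5a, at mean signals of 971 and 204, did not share the pattern by their brightest probe sets, with r of -0.36 and 0.393. The second Fzd7 probe set, at a mean signal of 8.1, gave 0.402. The other Wnt5a probe sets gave 0.117 to 0.627, the highest at a mean signal of 29.1.

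Axin2 ran the other way (r = -0.72, permutation p = 0.00733; rho = -0.66, permutation p = 0.0233), with r = -0.85 within the MSC-only group, -0.57 within co-culture, and -0.83 without the 2 farthest arrays. Its dim second probe set gave 0.315. With the macrophage marker level, r was -0.33 for Lrp6, -0.30 for Axin2 and -0.09 for Sfrp4.

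**Figure D3:**
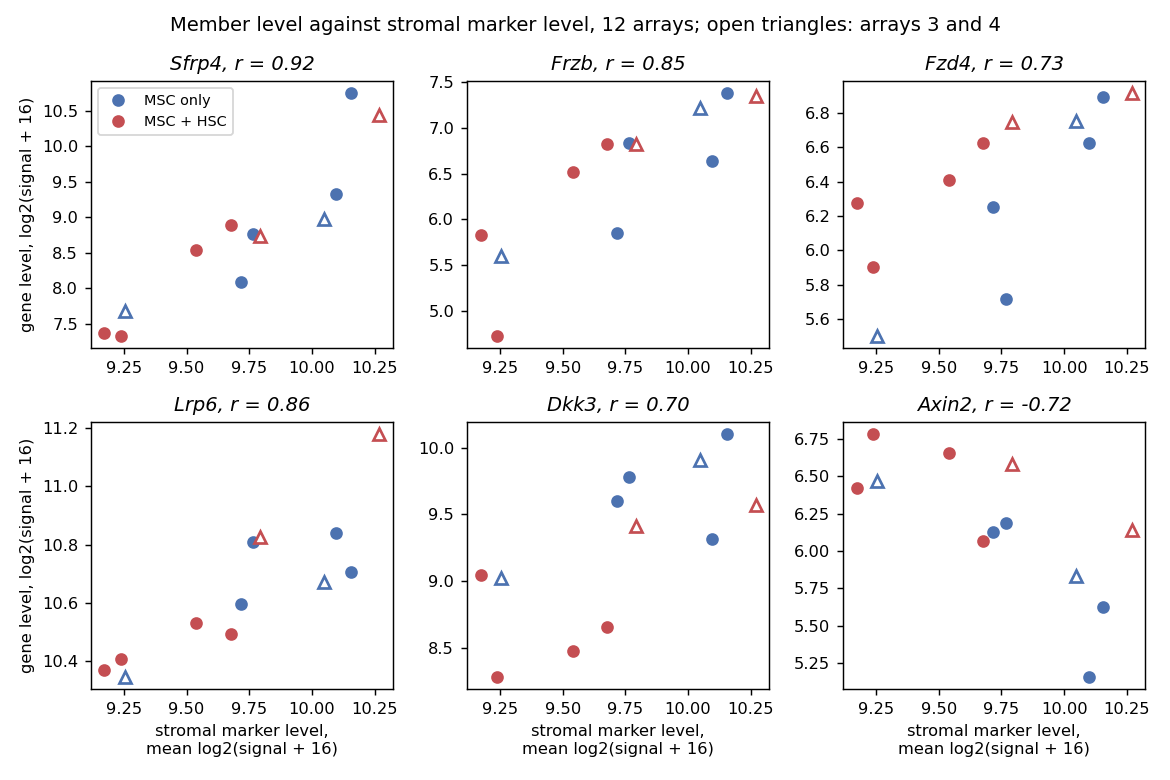
Gene level against the stromal marker level of the same array, both as log2(signal + 16), for 12 arrays; colours give the group and open triangles the arrays numbered 3 and 4. Sfrp4 (r = 0.918), Frzb, Fzd4, Lrp6 and Dkk3 are higher where stromal markers are higher, in both groups, and Axin2 (r = -0.72) is lower.

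A slope on the stromal marker level with the group as a term was then fitted to every probe set in limma, a fit chosen after the relation had been seen. The slope is in log2 units of the gene per log2 unit of the stromal level. It passed an adjusted p of 0.05 for 3 of the 23 members, all rising, and 0 falling, against 1.84% rising and 1.5% falling among all genes of that brightness. Sfrp4 rose by 2.76 (SE 0.36, adjusted p = 0.00663), Frzb by 1.91 (SE 0.36, adjusted p = 0.0246) and Fzd4, a Frizzled receptor known from retinal vessels, by 1.11 (SE 0.22, adjusted p = 0.0278). Fzd4 lies outside the rule for named genes and was chosen after its values were seen. Lrp6 was at 0.60 (adjusted p = 0.0513), Dkk3 at 0.86 (adjusted p = 0.168) and Axin2 at -0.73 (adjusted p = 0.170). These calls were sensitive to single arrays: without co-culture array 3, which had the highest stromal level, 0 passed, with Sfrp4 at an adjusted p of 0.0628, and without co-culture array 1, MSC-only array 1 or MSC-only array 4, or without the arrays numbered 3 and 4, Sfrp4 alone passed. Without the arrays numbered 3 and 4 the Lrp6 slope was 0.23 (adjusted p = 0.6785 in limma).

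**Figure D4:**
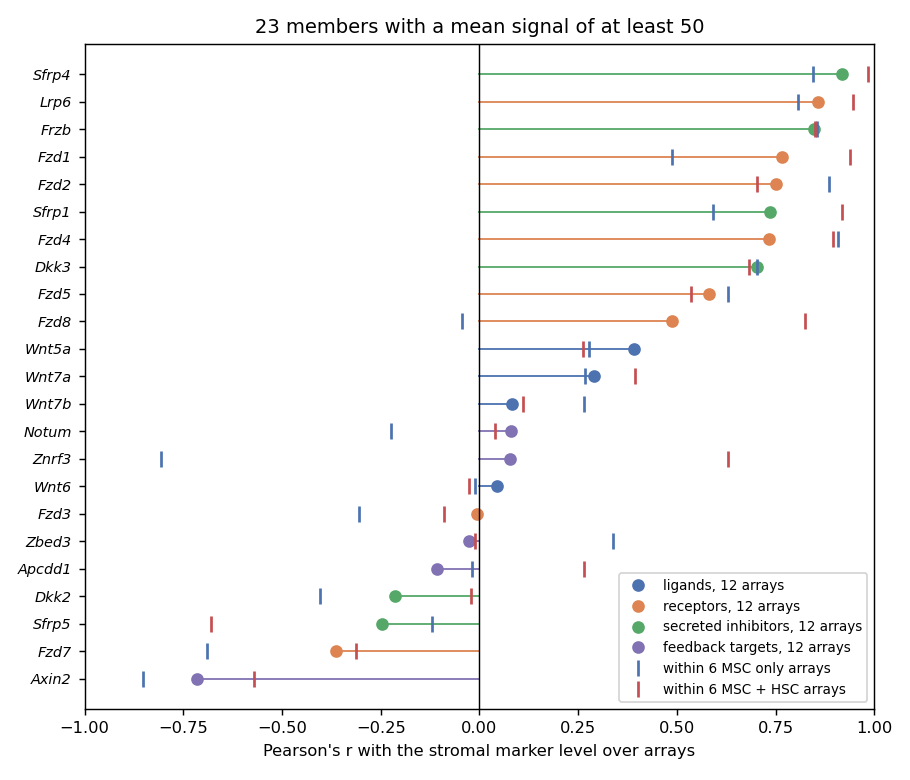
Pearson's r with the stromal marker level for the 23 members with a mean signal of at least 50; points are over 12 arrays, coloured by role, and ticks are within each group of 6. Inhibitors and receptors fill the top of the order, from Sfrp4 at 0.918 down to Dkk3 at 0.703, and Axin2 lies at the bottom at -0.72.

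The promoters of Frzb, Fzd4 and Axin2, members that moved with or against the stromal level, are shown. Sfrp4 and Lrp6, which followed that level most closely, and Fzd2, Sfrp1 and Dkk3 had no promoter matched. RefSeq promoters, the 250 bases before a gene's start in mouse build GRCm38.p6, were matched for 32 of the 49 members. The letters CTTTGAT or CTTTGTT, which TCF/LEF factors can bind, occurred on either strand in 4 of these 32 genes (12.5%) and in 9.21% of all 27025 genes with such a promoter. A GC box, GGGCGG on either strand, occurred in 23 of the 32 (71.9%) and in 35.4% of all. The sequences are those of Frzb and Fzd4, which rose with the stromal level, at chr2:80447397-80447646 (minus strand) and chr7:89404116-89404365 (plus strand), and of Axin2, at chr11:108920099-108920348 (plus strand). They run 5′ to 3′, and capitals mark GC boxes on either strand.
Frzb: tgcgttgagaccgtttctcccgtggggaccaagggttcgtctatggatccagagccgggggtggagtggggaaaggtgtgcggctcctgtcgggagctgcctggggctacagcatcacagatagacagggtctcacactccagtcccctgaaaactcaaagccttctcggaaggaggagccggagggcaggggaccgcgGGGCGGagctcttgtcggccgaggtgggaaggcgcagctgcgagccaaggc
Fzd4: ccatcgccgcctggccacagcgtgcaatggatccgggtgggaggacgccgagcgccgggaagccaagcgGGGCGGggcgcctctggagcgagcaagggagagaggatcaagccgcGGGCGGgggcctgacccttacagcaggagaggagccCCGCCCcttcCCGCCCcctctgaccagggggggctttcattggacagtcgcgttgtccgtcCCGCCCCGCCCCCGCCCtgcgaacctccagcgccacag
Axin2: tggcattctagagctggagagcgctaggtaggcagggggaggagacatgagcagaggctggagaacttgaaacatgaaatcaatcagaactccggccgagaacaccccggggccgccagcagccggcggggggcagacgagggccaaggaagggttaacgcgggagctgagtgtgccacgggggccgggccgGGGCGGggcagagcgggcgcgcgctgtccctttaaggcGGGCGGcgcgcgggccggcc
The Frzb promoter held 1 GC box, that of Fzd4 7, some of which overlap, and that of Axin2 2, and all 3 held 0 of the TCF/LEF letters. The promoter of Fzd1, which also followed the stromal level, is not shown. It held 0 GC boxes and 0 of the TCF/LEF letters. A match describes the letters only.

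The rest of the pathway also gave no call. Of 94 further Wnt pathway genes on a list written from textbook knowledge, 92 were measured and 0 passed the adjusted threshold (0.011% of all genes). At an unadjusted p under 0.05, 2 were higher (2.45% of all genes) and 0 lower (1.46%). The means of 43 were higher in co-culture and of 49 lower, with a median difference of -0.01. Ctnnb1, which encodes β-catenin, was at 17640 to 18864 in co-culture and 16923 to 20797 in MSC-only cultures (difference -0.02, interval -0.20 to 0.16). The other 3 brightest, Rhoa, Fbxw11 and Rac1, were at 0.03, -0.03 and 0.00. Mmp7, a matrix protease and a known β-catenin target in epithelium, was the 1 listed gene whose groups did not overlap, at 34.2 to 72.8 in co-culture and 11.4 to 25.3 in MSC-only cultures (0.209% of all genes did not overlap). Its difference was 0.85 (SE 0.16, adjusted p = 0.401 in limma) at a mean signal of 29.1. Tmem88, an inhibitor at the membrane that binds Dishevelled, was at 0.36 (SE 0.14, unadjusted p = 0.028). Dact2 and Lgr6, which make up the smallest p values with them, were at -0.57 and 0.27. Myc and Ccnd1, general targets of β-catenin, were at 0.04 and -0.08.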

How the data were processed

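The authors scanned GeneChip Mouse Genome arrays and turned the probe intensities into 1 value for each probe set in the GeneChip Operating Software. The deposited intensity, called signal here, is linear, never negative and not pooled over replicates, with a trimmed mean of 496.6 to 497.3 and a median of 74.8 to 89.0 on every array; neither the target of that scaling nor how probes were summarized is given in the sources used here. The number of arrays limits the precision.

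Groups were taken from the labels. Log2(signal + 16) of all 45037 probe sets was fitted with limma 3.58.1 in R 4.3.3 (lmFit, eBayes, no block, no filter), adjusted by Benjamini-Hochberg over all probe sets at 0.05. Of the probe sets 34945 carried 1 symbol in the platform annotation, 932 several and 9160 none here. A gene is its probe set with the highest mean log2 level. Single values were compared by two-sided exact permutation tests over 924 arrangements, whose smallest p is 0.0022, and correlations by 100000 permutations in scipy 1.17.1. The fit was tested on simulated data.

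The members and lists were chosen with earlier results of these data known. By rule the text names, per role, members past the threshold or without overlap, the 4 with the smallest p and the 3 brightest, plus the 4 of widest range, and of other pathway genes the 4 with the smallest p and the 4 brightest. Fzd6, Fzd2, Fzd4, Myc, Ccnd1 and further members named beside these fall outside it and were chosen after their values were seen. The analyses without arrays 3 and 4, and with the stromal level, were also chosen after seeing the data.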

Additional observations from a re-analysis of the deposited data

Results flagged for a closer look

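Of 48 groups of 6 arrays (24 named genes in both groups), 4 held an array whose gap to the others exceeded Dixon's 95% critical value; by chance about 1 in 20 groups does. Wnt3a was at 47.2 on co-culture array 2, where the next highest co-culture array had 14.4. Wnt7a was at 17.3 on co-culture array 5 and at 77.5 or more on the other co-culture arrays. Fzd3 was at 51.0 on MSC-only array 5 and at 96.4 or more on the other MSC-only arrays. Apcdd1 was at 94.2 on co-culture array 1 and at 129.5 or more on the other co-culture arrays.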

How the results depend on the processing

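No member probe set passed the adjusted threshold under any of the 25 settings, which covered the constant added before log2, the scaling, a filter on dim probe sets, limma's trend and robust options, the methods' t-test, the replicate block and leaving out arrays; the smallest adjusted p was 0.3545 (the Fzd6 probe set, without arrays 3 and 4). With the replicate block, fixed or random, the count was 0. Arrays of the same number correlated at -0.16, -0.13, 0.12, 0.15, 0.10 and 0.15, and the numbers were not taken as pairs. These correlations cannot settle whether they are pairs, since arrays 3 and 4 shared low Y-linked signals in both groups. The main fit and the exact permutation tests are unpaired. At an unadjusted p under 0.05 the member probe sets numbered 2 to 5 higher and 1 to 7 lower. The main fit had 4 on each side, where 2.81% (higher) and 1.55% (lower) of the whole array passed the same level. Array-wide shares of probe sets are not given for the other settings, so the ends of these ranges cannot be set against them. The members rising with the stromal level numbered 3, and 1 with median centring, 1 without arrays 3 and 4, 5 with a mean signal of at least 50, 7 with trend and robust, and 0 to 3 as single arrays were left out. Of all genes with a mean signal of at least 50, 1.84% rose in the main fit. That share is not given for the other settings, so their counts cannot be set against it. With log2(signal + 1) the Frzb slope did not pass (adjusted p = 0.083 in limma). The Lrp6 slope passed with log2(signal + 64) (adjusted p = 0.0138 in limma) and with quantile normalization (adjusted p = 0.034 in limma). Of 24 named genes 12 changed sign somewhere. With the mean of all probe sets Wnt6 was at 0.093, Wnt7b -0.026, Fzd1 0.083, Fzd3 0.047, Fzd7 0.086, Apcdd1 -0.23 and Znrf3 -0.0145. Without arrays 3 and 4 Wnt7a was at -0.27 and Znrf3 at -0.039, and with median centring Znrf3 at -0.0062. With the stromal level as a covariate Fzd1 was at 0.096, Lrp6 0.11, Frzb 0.19, Sfrp1 0.20 and Sfrp4 0.23. As single arrays were left out, Wnt7a ranged from -0.0105 to 0.46, Fzd1 from -0.17 to 0.061, Fzd7 from -0.10 to 0.0089, Lrp6 from -0.13 to 0.027, Frzb from -0.44 to 0.082, Sfrp1 from -0.40 to 0.093 and Znrf3 from -0.0024 to 0.079. The cause was not tested. Of the 49 genes 26 had a mean signal below 50, and a difference between such low values is understated on this scale.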
